A study of Mus musculus with 6 samples.

Results

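The vacuolar ATPase and the P-type ATPases are the membrane pumps that spend ATP to move protons, metal ions or phospholipids across membranes. They were described here in mouse liver through every probe set of the array that the platform annotation pairs with 1 gene and whose symbol begins with Atp followed by 1, 2, 4, 6, 7, 8, 9, 10, 11, 12 or 13 and a letter. This rule took 89 probe sets of 48 genes, out of 20380 such probe sets of 12393 genes, with 21 vacuolar ATPase genes (41 probe sets) and 27 P-type genes (48 probe sets). The mitochondrial ATP synthase genes are not among them. The P-type class also holds genes named for beta subunits, the Atp1b genes and Atp4b, which are not catalytic chains. No Atp1a gene was among the members. Whole livers taken on postnatal day 9 gave the RNA, from 3 wild-type mice and 3 transgenic ones. Each animal has its own array, and the labels speak of biological replicates. Transgenic mice carried a conditional allele that overexpresses Tcfeb, the older symbol of Tfeb, and Cre recombinase under the albumin promoter, which is active in cells of the hepatocyte lineage. Wild-type mice are titled CTL and otherwise described only as wild type. Whether they carried the allele or Cre alone, and the strain and sex of all animals, is not stated in the labels. The comparison asks how TFEB overexpression in liver changed gene expression, and here how it changed the pumps that acidify lysosomes beside the other ion pumps.

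The vacuolar ATPase is a rotary proton pump. Its cytosolic V1 sector splits ATP and turns a central stalk, its membrane-embedded V0 sector carries protons, and the accessory proteins help to assemble and sort it. It acidifies lysosomes, endosomes and the Golgi, and several subunits exist as a widely expressed isoform and as isoforms known from kidney, testis, brain or bone. P-type ATPases work as single catalytic chains that form a phosphorylated intermediate, some with a beta or CDC50 partner, and include the sodium-potassium, calcium, proton-potassium and copper pumps and the flippases, which move phospholipids between membrane leaflets. TFEB is a basic helix-loop-helix factor known to bind the CLEAR element, an E-box with flanking bases, in promoters of lysosomal genes that include vacuolar ATPase subunits.

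Promoter windows were searched for this element because TFEB was the factor overexpressed. RefSeq windows of assembly GRCm38.p6, from 250 bases before to 50 bases after a transcript start, were on hand for 35 of the 48 genes, 16 vacuolar and 19 P-type. Motifs searched on both strands were the E-box CACGTG, its extension TCACGTG, which contains the E-box, and the full CLEAR palindrome, 10 bases long, which contains both. TCACGTG lay in windows of 4 of 16 vacuolar genes (25.0%) and 1 of 19 P-type genes (5.26%), against 4.29% of the 27025 genes with a window and 3.77% of all 32851 windows. CACGTG lay in the same 4 vacuolar genes and in 2 P-type genes, the second being Atp1b3, against 8.09% of all genes. The full palindrome was in 0 of the 44 member windows, against 0.37% of all genes. The 5 stretches with TCACGTG are shown with 14 flanking bases on each side, 5′ to 3′ on the gene's strand, with the motif (and its overlapping copy on the other strand, where present) in capitals. They are at chr17:26676384-26676419 (plus strand) for Atp6v0e, chr16:44139370-44139405 (minus) for Atp6v1a, chrX:106027122-106027157 (plus) for Atp7a, chr4:117887328-117887380 (minus) for Atp6v0b and chr8:105566047-105566082 (minus) for Atp6v0d1.
Atp6v0e: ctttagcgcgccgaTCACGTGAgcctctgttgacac
Atp6v1a: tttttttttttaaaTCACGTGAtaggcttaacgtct
Atp7a: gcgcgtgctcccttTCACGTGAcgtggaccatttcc
Atp6v0b: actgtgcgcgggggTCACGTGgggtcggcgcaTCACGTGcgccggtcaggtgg
Atp6v0d1: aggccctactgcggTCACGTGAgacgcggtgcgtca
In Atp6v0e the E-box ran from base 4 to base 9 after the start, in Atp6v1a from base -131 to -126, and in Atp7a from base -87 to -82. Atp6v0b held a pair of E-boxes, at -36 to -31 and at -18 to -13, and in Atp6v0d1 the E-box spanned the start itself, from -3 to 3. A match is a description of these letters and not evidence of binding, which was not measured.

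Longer promoter stretches, from 200 bases before to 20 bases after the start, are shown for the 2 vacuolar genes with the largest rise that hold TCACGTG and for the P-type gene with the largest rise, which holds none of the 3 motifs in its window. They lie at chr17:26676196-26676415 for Atp6v0e, chr16:44139240-44139459 for Atp6v1a (minus strand) and chr8:12756816-12757035 for Atp11a.
Atp6v0e: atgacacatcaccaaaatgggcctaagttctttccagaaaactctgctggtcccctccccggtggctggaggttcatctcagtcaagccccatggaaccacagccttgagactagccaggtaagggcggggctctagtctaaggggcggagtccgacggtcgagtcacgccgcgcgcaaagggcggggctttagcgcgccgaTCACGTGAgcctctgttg
Atp6v1a: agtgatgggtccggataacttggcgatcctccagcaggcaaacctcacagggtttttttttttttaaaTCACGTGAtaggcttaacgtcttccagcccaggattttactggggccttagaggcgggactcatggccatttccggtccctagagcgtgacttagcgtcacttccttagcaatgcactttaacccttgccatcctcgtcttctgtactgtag
Atp11a: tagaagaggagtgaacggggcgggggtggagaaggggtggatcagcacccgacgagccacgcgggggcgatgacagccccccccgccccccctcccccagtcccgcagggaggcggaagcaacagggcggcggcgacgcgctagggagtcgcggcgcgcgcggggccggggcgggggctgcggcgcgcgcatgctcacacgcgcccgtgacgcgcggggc
The Atp6v0e and Atp6v1a stretches carry the motif in capitals at different distances from the start, and the Atp11a stretch has no capitals.

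Values below are log2 expression as deposited, given per array in the order of replicates 1, 2 and 3, and each difference is the transgenic mean less the wild-type mean, with its standard error (SE) from limma. A gene was called higher or lower at a Benjamini-Hochberg adjusted p under 0.05 over all 12393 genes, and the brightest probe set on average stands for each gene. Probes differ in brightness, so a difference between the readings of 2 genes is not read as a difference in RNA level. Splits into brighter and dimmer genes and summed marker levels refer to probe set readings. Of all genes tested, 40.3% were called, 19.9% higher and 20.4% lower. The array medians were 6.74 to 6.79. Alb, the hepatocyte albumin gene, read 14.84 to 14.90, the highest value on each array. The single Tfeb probe set read 6.91, 6.63 and 6.58 in wild type and 6.52, 6.61 and 6.36 in transgenic liver (adjusted p = 0.168), and whether it covers the transgene is not stated. Xist read 5.58 in transgenic replicate 1 and 13.03 to 13.19 on the other 5 arrays, with the opposite pattern for Eif2s3y, so the groups are not matched for sex. All 14 probe sets of the bacterial hybridisation controls read lower on every transgenic array (median difference -0.37), and directions below are relative to the deposited scale. Scaled to these controls, the median over all genes moved from -0.04 to 0.33. In whole liver, fewer cells of a type and less RNA per cell cannot be told apart.

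Vacuolar ATPase genes were called higher in transgenic liver for 8 of 21 members (38.1%) and lower for 2 (9.52%), with 11 not passed and a median difference of 0.18. P-type genes were called higher for 6 of 27 (22.2%) and lower for 5 (18.5%), with 16 not passed and a median of -0.04. The share called over both directions was 47.6% for vacuolar genes and 40.7% for P-type genes, so the P-type share lay at the background of 40.3%. All genes had a median of -0.04, the same as the P-type genes. Array by array, the median over vacuolar genes of the value minus its wild-type mean was 0.10, 0.21 and 0.17 on the transgenic arrays and -0.02 to 0.03 on the wild-type arrays, so each transgenic array lay above the wild-type arrays. The same median over P-type genes was -0.02 to -0.04 on the transgenic arrays and -0.02 to 0.02 on the wild-type arrays. These are descriptions of chosen genes, and the difference between the classes was not tested. The vacuolar count fell to 5 higher when transgenic replicate 2 or 3 or wild-type replicate 2 was left out, and the lower count fell to 1 without any single transgenic array. Calls higher over all genes also fell in those fits, from 2467 to 1876, 1971 and 1957. P-type genes called lower numbered 2 without transgenic replicate 1 or wild-type replicate 3 and 3 without any other single array. Calls lower over all genes numbered 1890 to 2407 in these fits, beside 2523 with all arrays. After scaling to the bacterial controls 16 vacuolar genes were called higher and 0 lower, and 18 P-type genes higher and 0 lower, with medians of 0.55 and 0.33 beside 0.33 for all genes.

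**Figure D1:**
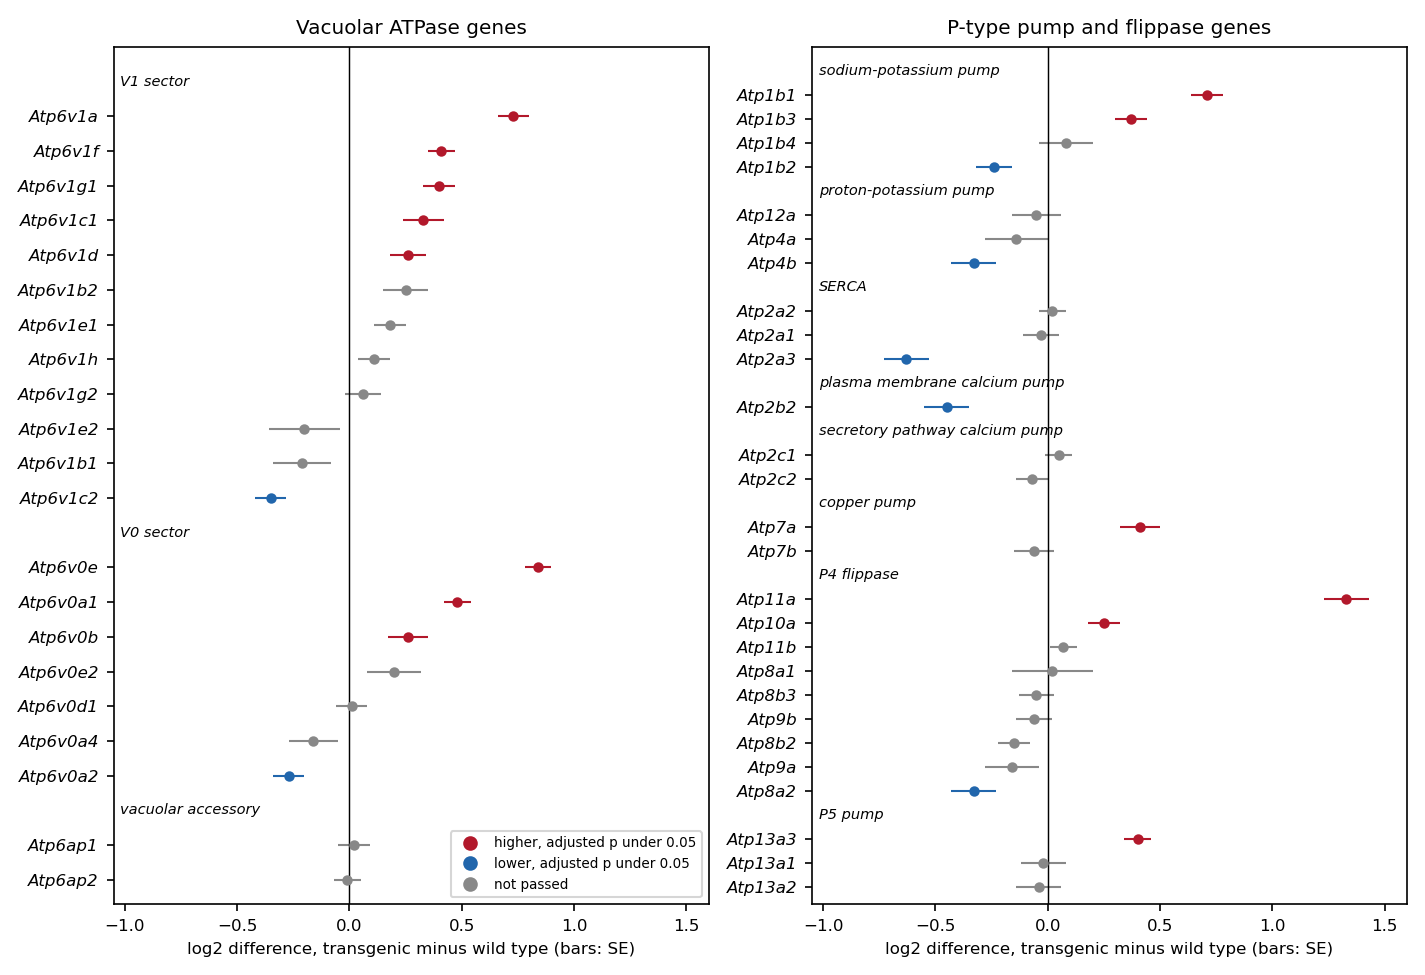
Log2 difference, transgenic minus wild type, of each of the 48 genes, grouped by role, with bars for the SE of the fit (3 arrays per group) and colours for the call. Among vacuolar genes 8 points lie to the right as called higher and 2 to the left as called lower, and among P-type genes 6 and 5.

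**Figure D2:**
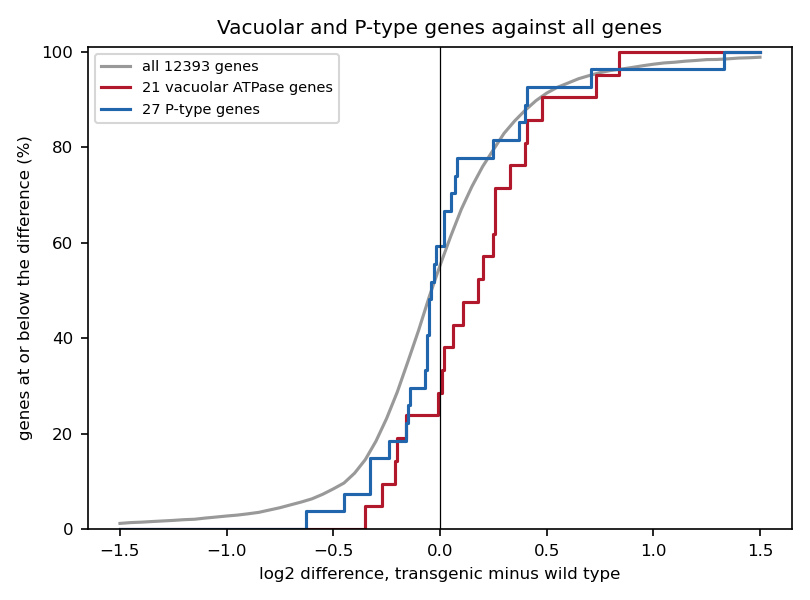
Share of genes (%) at or below each log2 difference for the 21 vacuolar genes, the 27 P-type genes and all 12393 genes. The P-type line crosses near the line for all genes, both with a median of -0.04, and the vacuolar line lies to the right of both around its median of 0.18.

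Most vacuolar calls were among genes whose mean over all arrays lay above that of the median probe set (6.78). Of 14 such vacuolar genes 7 were called higher and 1 lower, with a median of 0.26, against 28.7% higher and 20.4% lower of the 7220 such genes of all kinds, whose median was 0.06. The 7 dimmer vacuolar genes had 1 call in each direction and a median of -0.16, against 7.62% higher, 20.3% lower and a median of -0.13 for all 5173 dimmer genes. Of 14 brighter P-type genes 5 were called higher (35.7%) and 2 lower, with a median of 0.03, and of 13 dimmer ones 1 was called higher and 3 lower, with a median of -0.06. The dimmer vacuolar genes were mostly isoforms known from other tissues. They were Atp6v0a4 and Atp6v1b1 (kidney), Atp6v1c2 (kidney and lung), Atp6v1e2 (testis), Atp6v1g2 and Atp6v0e2 (brain), together with Atp6v0a1. With no detection calls, their signal over background is unknown.

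The V1 sector had 12 measured genes, of which 5 were called higher, 1 lower and 6 did not pass, with a median of 0.22. These were 41.7% higher and 8.33% lower, against 19.9% and 20.4% of all genes. Subunit A holds the catalytic ATP sites. Its gene Atp6v1a read 9.59, 9.71 and 9.72 in wild type and 10.38, 10.33 and 10.49 in transgenic liver, with every transgenic array above every wild-type array. It rose by 0.73 (SE 0.07, 1.66-fold, adjusted p = 0.000261), and its other probe set rose by 0.56. Subunit B completes the ATP-binding ring. Its widely expressed isoform gene Atp6v1b2 read 9.65, 9.44 and 9.52 against 9.60, 9.89 and 9.87, so the groups overlapped through transgenic replicate 1, and the difference of 0.25 did not pass (adjusted p = 0.0768). The kidney isoform Atp6v1b1 read 3.93 to 4.54 over all arrays with a difference of -0.21 (SE 0.13), which did not pass.

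The rotating central stalk is made of subunits D and F. Atp6v1f read 10.71, 10.65 and 10.61 in wild type and 11.06 on each transgenic array, a rise of 0.41 (SE 0.06, adjusted p = 0.00188). Atp6v1d read 10.55, 10.47 and 10.54 against 10.68, 10.78 and 10.89, and rose by 0.26 (SE 0.08, adjusted p = 0.0289). The groups did not overlap for either gene, and both other probe sets of Atp6v1d were called higher as well, by 0.37 and 0.38. The adjusted p of Atp6v1d rose above 0.05 when transgenic replicate 2 (0.0748) or 3 (0.0912) or wild-type replicate 2 (0.0897) or 3 (0.0609) was left out, and with cyclic loess normalization (0.116), which ended the call.

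The peripheral stalks, which hold the ATP-splitting head still, contain subunits E and G, with C and H at their base. Atp6v1g1 read 10.82, 10.81 and 10.95 against 11.23, 11.23 and 11.33, with no overlap, and rose by 0.40 (SE 0.07, adjusted p = 0.00356). The G2 isoform gene Atp6v1g2 differed by 0.06 and did not pass. Atp6v1e1 read 11.77, 11.70 and 11.68 against 11.85, 11.93 and 11.92, so the groups stood apart, but the difference of 0.18 (SE 0.07) missed the threshold (adjusted p = 0.0578). The testis isoform Atp6v1e2 differed by -0.20 (SE 0.16), with overlapping groups. Atp6v1h, a regulatory subunit, read 9.62, 9.77 and 9.78 against 9.86, 9.83 and 9.82, and its difference of 0.11 did not pass (adjusted p = 0.231).

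The C subunit isoforms went in opposite directions. Atp6v1c1, the widely expressed isoform, read 9.98, 9.97 and 10.07 in wild type and 10.19, 10.31 and 10.50 in transgenic liver, with no overlap, and rose by 0.33 (SE 0.09, adjusted p = 0.0236). Atp6v1c2 read 4.37, 4.46 and 4.38 against 4.06, 4.13 and 3.97, below the first quartile of each array (4.74 to 4.88), and fell by 0.35 (SE 0.07, adjusted p = 0.00673), although its difference was 0.02 after scaling to the bacterial controls. Leaving out transgenic replicate 2 (adjusted p = 0.0571) or 3 (0.0626), or wild-type replicate 1 (0.0513) or 2 (0.0718), ended the Atp6v1c1 call, as did cyclic loess normalization (0.0776).

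The V0 sector had 7 measured genes, of which 3 were called higher, 1 lower and 3 did not pass, with a median of 0.20. These were 42.9% higher and 14.3% lower, against 19.9% and 20.4% of all genes. The small subunit e had the largest rise of the vacuolar genes. Atp6v0e read 10.06, 10.12 and 10.06 in wild type and 10.90, 10.93 and 10.93 in transgenic liver, and the spread within groups (SD 0.04 and 0.01) was far below the gap. It rose by 0.84 (SE 0.06, 1.79-fold, adjusted p = 5.54e-05). The second e isoform gene, Atp6v0e2, read 6.38, 6.48 and 6.44 against 6.40, 6.89 and 6.60, and its difference of 0.20 (SE 0.12) did not pass. Atp6v0b, whose product is a proton-carrying subunit of the rotor ring, read 9.15, 8.86 and 8.99 against 9.19, 9.27 and 9.31, with the closest arrays 9.15 and 9.19. It was called higher by 0.26 (SE 0.09, adjusted p = 0.0473). That call was lost without wild-type replicate 2 (adjusted p = 0.138), wild-type replicate 3 (0.103), transgenic replicate 1 (0.0657), 2 (0.116) or 3 (0.131), and with quantile normalization again (0.111), median centring (0.0792), cyclic loess (0.152) or the mean of its 3 probe sets (0.215). Atp6v0d1, the subunit that joins rotor and stalk, read 10.11, 9.99 and 10.03 against 10.11, 10.06 and 9.99, a difference of 0.01 (SE 0.07), so the groups coincided.

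Subunit a forms the half-channels for protons, and its isoforms steer the pump to different membranes. Atp6v0a1 read 6.24, 6.29 and 6.27 in wild type and 6.70, 6.78 and 6.74 in transgenic liver, with no overlap, a rise of 0.48 (SE 0.06, adjusted p = 0.000807). Of its other 3 probe sets, 1 was called higher by 0.92, 1 was called lower, with a difference of -0.32, and 1 did not pass. Atp6v0a2, the Golgi and endosome isoform, read 7.93, 7.75 and 7.82 against 7.58, 7.60 and 7.52 and fell by 0.27 (SE 0.07, adjusted p = 0.0214), but its difference was 0.05 over the mean of its 3 probe sets and 0.10 after scaling to the bacterial controls. Its call was lost without transgenic replicate 1 (adjusted p = 0.0501), 2 (0.0507) or 3 (0.0705). Atp6v0a4, the kidney isoform, differed by -0.16 and did not pass. The a3 isoform, carried by the osteoclast and lysosome pump and encoded by Tcirg1, lies outside the symbol rule. Tcirg1 read 8.35, 8.23 and 8.18 against 7.96, 7.86 and 8.14, a difference of -0.26 that missed the threshold (adjusted p = 0.0539) and passed in 7 alternatives, among them without transgenic replicate 3 (adjusted p = 0.0288), but after scaling to the bacterial controls its difference was 0.11 (adjusted p = 0.387).

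Both accessory genes, Atp6ap1 and Atp6ap2, which lie on the X chromosome and take part in assembling the pump, did not pass. Atp6ap2 read 11.56, 11.62 and 11.60 against 11.59, 11.53 and 11.60, a difference of -0.01 (SE 0.06, adjusted p = 0.865). Atp6ap1 differed by 0.02 (SE 0.07). Values of both groups overlapped for these genes. Scaled to the bacterial controls, Atp6ap2 was called higher by 0.36, close to the shift of all genes.

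**Figure D3:**
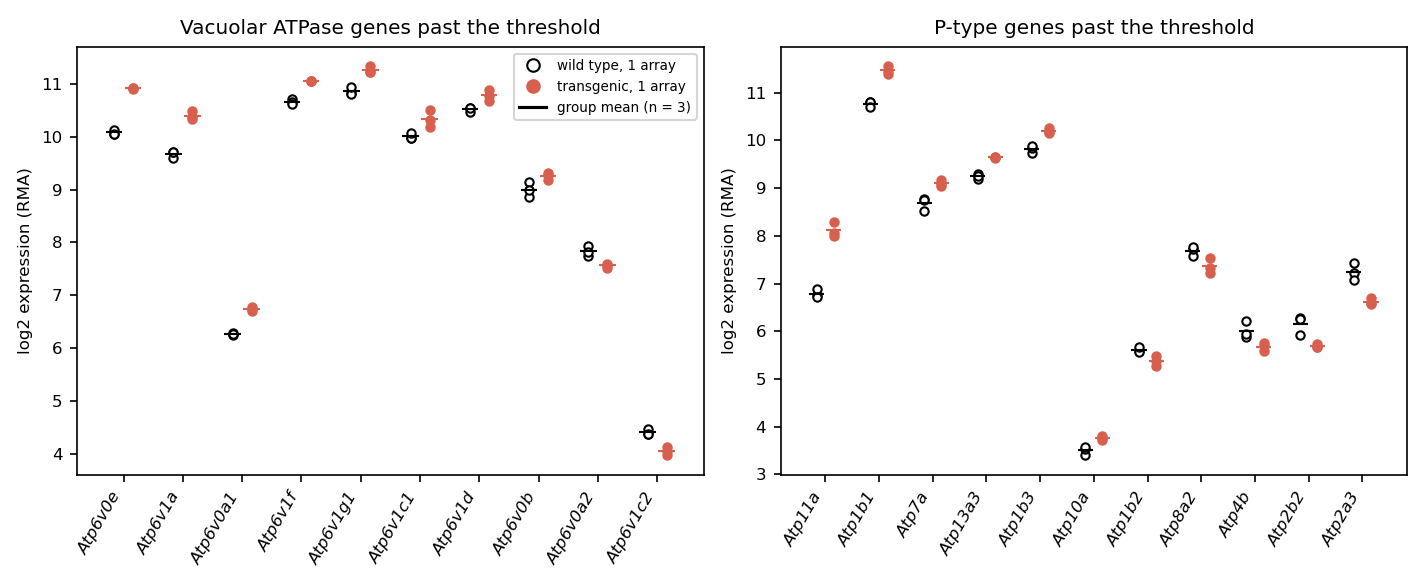
Log2 expression (RMA) on each array for the 10 vacuolar and 11 P-type genes past the threshold, with open points for wild type, filled points for transgenic and lines for group means (n = 3). In all 21 genes the 3 transgenic values lie on one side of the 3 wild-type values, as for Atp6v0e at 10.90 to 10.93 above 10.06 to 10.12.

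Genes known to work with the vacuolar ATPase or with acidic organelles were read from lists outside the symbol rule. Of 11 measured partners of the pump (15 listed), 2 were called, both higher, and 9 did not pass. The share called was 18.2%, against 40.3% of all genes, and the median was -0.12. Tmem199, an assembly factor of the V0 sector, read 7.14, 7.32 and 7.31 against 7.70, 7.63 and 7.76 and rose by 0.44 (SE 0.08, adjusted p = 0.00356). Aldoa, a glycolytic aldolase known to bind the pump, rose by 1.32 (SE 0.18) on the probe set used and was called higher on all 4 of its probe sets. The names of all 4 end in _x_at, so the alternative without probe sets ending _s_at or _x_at did not test Aldoa. Of 9 measured ion channels and exchangers of acidic organelles (12 listed), 2 were called higher, 1 lower and 6 did not pass, with 33.3% called. Clcn3, a chloride-proton exchanger of endosomes, read 9.68, 9.54 and 9.76 against 10.28, 10.18 and 10.16 and rose by 0.55 (SE 0.08, adjusted p = 0.00142), on all 4 of its probe sets. Clcn4, a close relative of Clcn3, rose by 0.26 (adjusted p = 0.0262), a call lost without transgenic replicate 1 (0.0791), transgenic replicate 2 (0.0749), wild-type replicate 2 (0.0609) or wild-type replicate 3 (0.0769), and with cyclic loess (0.115), median centring (0.0509) or quantile normalization again (0.0582). Tpcn1, a cation channel of endosomes and lysosomes, fell by 0.43 (SE 0.08, adjusted p = 0.00428), though scaled to the bacterial controls its difference was -0.06 and did not pass. Clcn7, the lysosomal chloride-proton exchanger, and Mcoln1, the lysosomal calcium channel, differed by -0.04 and -0.02 and did not pass.

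Genes placed with the sodium-potassium pump, by symbol alone, were the Atp1b genes. Beta subunits of this pump carry its catalytic subunit to the cell surface, and whether each Atp1b product does so in mouse was not examined. Of 4 genes, 2 were called higher and 1 lower, with 75.0% called against 40.3% of all genes. Atp1b1, the main epithelial form, read 10.81, 10.81 and 10.69 in wild type and 11.40, 11.55 and 11.46 in transgenic liver, with no overlap, and rose by 0.71 (SE 0.07, 1.63-fold, adjusted p = 0.000268). Of its other 4 probe sets 3 were called higher, by 0.57 to 1.15, and 1 did not pass (-0.21). Atp1b3 read 9.73, 9.84 and 9.89 against 10.15, 10.17 and 10.25 and rose by 0.37 (SE 0.07, adjusted p = 0.00501). The neural form Atp1b2 read 5.59, 5.57 and 5.68 against 5.27, 5.37 and 5.48 and fell by 0.24 (SE 0.08, adjusted p = 0.0394), but its difference was 0.13 after scaling to the bacterial controls. That call was lost without transgenic replicate 1 (adjusted p = 0.114) or 2 (0.1) and without wild-type replicate 1 (0.0585), 2 (0.0695) or 3 (0.111), as well as with quantile normalization again (0.127), cyclic loess (0.19) and the trend and robust options of eBayes (0.0689). Atp1b4 differed by 0.08 (SE 0.12), with overlapping groups.

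FXYD proteins are small regulators of the sodium-potassium pump. Fxyd1, phospholemman, read 11.49, 11.37 and 11.24 in wild type and 10.49, 10.41 and 10.56 in transgenic liver and fell by 0.88 (SE 0.08, adjusted p = 0.000199). Fxyd5 read 7.15, 7.23 and 7.10 against 7.78, 7.60 and 7.67 and rose by 0.52 (SE 0.08, adjusted p = 0.00139). Neither pair of groups overlapped. Among all 17 measured partners of P-type pumps (19 listed), 2 were called higher, 4 lower and 11 did not pass, with a median of -0.01. The share called was 35.3%, against 40.3% of all genes. The 6 called were Fxyd1, Fxyd5, Fxyd7 (-0.39, or -0.01 and not passed after scaling to the bacterial controls), and the copper and flippase partners given below.

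Calcium pumps had 2 of 6 genes called (33.3%, against 40.3% of all genes), both lower, with a median of -0.05. Of all genes 20.4% were called lower. Atp2a3, the sarco-endoplasmic reticulum pump known from blood and epithelial cells, read 7.22, 7.07 and 7.44 against 6.57, 6.60 and 6.70 and fell by 0.63 (SE 0.10, adjusted p = 0.00256), with its other probe set also called lower (-0.43). Scaled to the bacterial controls its difference was -0.25 (adjusted p = 0.0593). Of granulocyte markers 7 of 8 measured were called lower, against 20.4% of all genes. Their summed level was 13.44 to 14.57 on the log2 scale in wild type and 11.36 to 12.54 in transgenic liver. Kupffer cell and macrophage markers had 4 of 10 lower and 0 higher. Erythroid and bile duct cell markers went the other way, each with 4 of 6 higher and 0 lower, against 19.9% higher of all genes. The part of these markers in this result was not tested. Atp2b2, a plasma membrane calcium pump, read 5.92, 6.27 and 6.26 against 5.68, 5.74 and 5.68 and fell by 0.45 (SE 0.10, adjusted p = 0.0109). This call was lost over the mean of its 3 probe sets (difference -0.27, adjusted p = 0.158) and with scaling to the bacterial controls (difference -0.08). The secretory pathway pump gene Atp2c1 read 8.38, 8.43 and 8.44 against 8.53, 8.43 and 8.44, a difference of 0.05 (SE 0.06) that did not pass. After scaling to the bacterial controls Atp2c1 was called higher by 0.42 (adjusted p = 0.0046), while all genes had a median of 0.33. Atp2a1, the skeletal muscle pump, and Atp2c2 differed by -0.03 and -0.07.

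Atp2a2, the housekeeping endoplasmic reticulum calcium pump, is named after its values were seen, because its probe sets disagreed. The probe set that stands for the gene read 11.34, 11.33 and 11.33 in wild type and 11.40, 11.36 and 11.28 in transgenic liver, and differed by 0.02 (SE 0.06). The other 3 were all called lower, with differences of -0.66, -0.54 and -0.40 and no overlap between groups. The first of these read 9.72, 9.83 and 9.81 against 9.14, 9.14 and 9.09. Over the mean of the 4 probe sets the gene was called lower (difference -0.40, adjusted p = 0.00298), and after scaling to the bacterial controls the probe set that stands for it was called higher (0.39, adjusted p = 0.00825). Its call thus rests on which probe set is read and on the scaling. Which transcript forms the probe sets cover is not stated in the files.

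**Figure D4:**
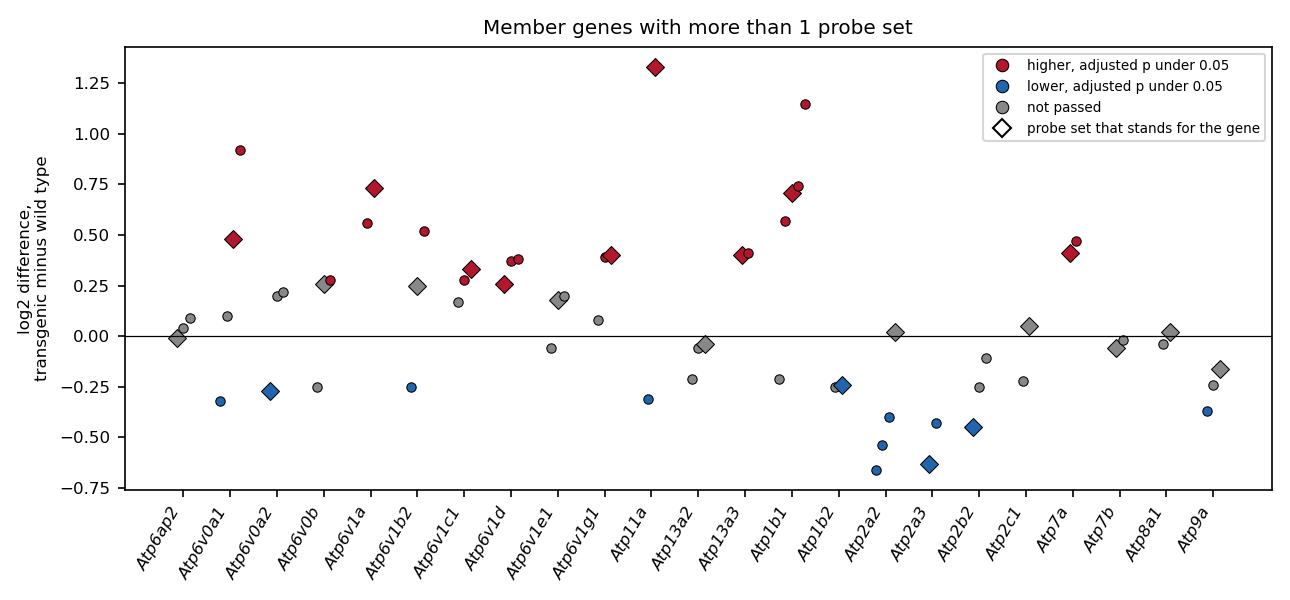
Log2 difference of each probe set, transgenic minus wild type, for the 23 member genes with over 1 probe set, with colours for the call over all 20380 probe sets and diamonds for the probe set that stands for the gene. Points of one gene lie close together for Atp6v1d, Atp13a3 and Atp7a and on both sides of 0 for Atp6v0a1, Atp6v1b2 and Atp11a.

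Of these 23 genes, 3 (Atp6v0a1, Atp6v1b2 and Atp11a) had probe sets called in both directions (13%), against 102 of 4956 genes (2.06%) on the array. Read probe set by probe set, 15 of 41 vacuolar probe sets were called higher and 4 lower, and 11 of 48 P-type probe sets were called higher and 11 lower, against 36.3% called of all 20380, 18.7% higher and 17.6% lower. The vacuolar excess of higher over lower calls was present in both readings as a count, whereas P-type calls were even. Both readings include the probe set that stands for each gene, so they are not separate support. Probe sets of one gene share their transcript and are not replicates.

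Of the 2 copper pump genes, 1 was called. Atp7a, which delivers copper to secreted enzymes and exports it, read 8.52, 8.78 and 8.76 in wild type and 9.08, 9.05 and 9.17 in transgenic liver, with no overlap, and rose by 0.41 (SE 0.09, 1.33-fold, adjusted p = 0.0083). Its other probe set rose by 0.47. Atp7b, the hepatocyte copper pump that is mutated in Wilson disease, read 5.14 to 5.45 over all arrays, a difference of -0.06 (SE 0.09) on a dim probe set. The copper chaperone gene Atox1, whose product hands copper to both pumps, read 11.11, 11.23 and 11.24 against 12.05, 12.04 and 11.90 and rose by 0.80 (SE 0.07, adjusted p = 0.000166). Slc31a1, the copper uptake transporter, fell by 0.46 (SE 0.09, adjusted p = 0.00442) on 1 of its 2 probe sets, while the other did not pass (-0.04), and scaled to the bacterial controls the fall did not pass (difference -0.09). Slc31a1 is named outside the rule of up to 4 genes per list. Atp7a lies on the X chromosome. Without transgenic replicate 1, the array with the low Xist reading, its difference was 0.42 (adjusted p = 0.0236). The part of sex in this result was not tested.

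Flippases and their relatives had 9 measured genes, 2 called higher, 1 lower and 6 not passed, with a median of -0.05. The share called was 33.3%, against 40.3% of all genes. Atp11a, a plasma membrane flippase for phosphatidylserine, read 6.76, 6.89 and 6.71 in wild type and 8.05, 8.30 and 7.99 in transgenic liver, and rose by 1.33 (SE 0.10, 2.51-fold, adjusted p = 6.03e-05), the largest difference of the 48 genes. Its second probe set read 5.98, 6.04 and 6.02 against 5.77, 5.80 and 5.53 and was called lower, with a difference of -0.31. Atp10a, which flips phosphatidylcholine, read 3.40, 3.54 and 3.58 against 3.80, 3.72 and 3.76, below the first quartile of every array. Its rise of 0.25 (SE 0.07, adjusted p = 0.0288) was lost without transgenic replicate 1 (0.0819), 2 (0.0586) or 3 (0.0717) and without wild-type replicate 1 (0.0621) or 2 (0.0592). Atp8a2, known from neurons and photoreceptors, read 7.57, 7.73 and 7.77 against 7.23, 7.53 and 7.33 and fell by 0.33 (SE 0.10, adjusted p = 0.0293), although its difference was 0.04 after scaling to the bacterial controls. That call was lost without transgenic replicate 1 (0.0868) or 3 (0.0846) and without wild-type replicate 2 (0.0857) or 3 (0.086). The other 6, Atp8a1, Atp8b2, Atp8b3, Atp9a, Atp9b and Atp11b, had differences from -0.16 to 0.07 on the probe sets that stand for them. Another probe set of Atp9a was called lower (-0.37), and its remaining one did not pass (-0.24).

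Tmem30a, the CDC50 chaperone that most flippases need to leave the endoplasmic reticulum, fell, while the probe set that stands for Atp11a rose. It read 10.78, 10.87 and 10.84 in wild type and 10.13, 10.12 and 10.24 in transgenic liver, a fall of 0.67 (SE 0.07, adjusted p = 0.000256), and 3 of its 4 probe sets were called lower. Its relative Tmem30b differed by 0.03 and did not pass.

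P5 pumps include the polyamine exporters of late endosomes and lysosomes. Atp13a3, a polyamine transporter, read 9.20, 9.30 and 9.25 in wild type and 9.64, 9.65 and 9.66 in transgenic liver, with no overlap, and rose by 0.40 (SE 0.06, adjusted p = 0.0021), with its other probe set higher by 0.41. Atp13a2, the lysosomal polyamine exporter, differed by -0.04 (SE 0.10), and Atp13a1, an endoplasmic reticulum pump that removes misplaced membrane helices, by -0.02. Neither passed, and their groups overlapped. Proton-potassium pump genes, known from stomach and colon, had 1 of 3 called (33.3%, against 40.3% of all genes). Atp4b, the beta subunit gene, read 6.22, 5.87 and 5.95 against 5.76, 5.59 and 5.69. It fell by 0.33 (SE 0.10, adjusted p = 0.0352), but its difference was 0.04 after scaling to the bacterial controls. That call was lost without wild-type replicate 1 (0.0605) or 3 (0.0563) and without transgenic replicate 1 (0.0513), 2 (0.11) or 3 (0.0836), as well as with quantile normalization again (0.0643) and cyclic loess (0.0881). Atp4a and Atp12a differed by -0.14 and -0.05.

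Read against the promoter stretches shown above, the 5 genes with TCACGTG had differences of 0.84 (Atp6v0e), 0.73 (Atp6v1a), 0.41 (Atp7a), 0.26 (Atp6v0b) and 0.01 (Atp6v0d1). Among them 4 were called higher and Atp6v0d1 did not pass, against 19.9% higher of all genes and 28.7% of the brighter ones. The share called higher among all genes with TCACGTG in a window was not computed, and a link between motif and rise was not tested. Genes without the motif in a window were also called higher, among them Atp6v0a1, Atp6v1f, Atp6v1d, Atp1b1, Atp1b3 and Atp11a. No window was on hand for Atp6v1g1, Atp6v1c1 and Atp13a3.

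Markers of other liver cells were read beside the background of 40.3% called. Kupffer cell and macrophage markers were called for 4 of 10 measured, all lower, with a summed level of 14.04 to 14.39 in wild type and 13.76 to 14.11 in transgenic liver. Bile duct cell markers were called higher for 4 of 6 (summed level 8.54 to 9.78 against 11.21 to 11.65) and erythroid markers for 4 of 6 (10.40 to 10.54 against 11.05 to 11.32). Of all genes 19.9% were called higher. Among the bile duct cell markers Cldn4 had the largest rise, from a mean of 5.92 to 10.53, and weighed most in the transgenic sum. Krt19 (-0.27) and Cftr (0.38) did not pass. Stellate cell markers had 1 higher and 3 lower of 7, and endothelial markers 1 higher and 3 lower of 6. The part of these markers in the pump results was not tested.

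Calls that held in each of the 17 alternatives that tested them were those of 10 of the 21 called genes. They were Atp6v0e, Atp6v1a, Atp6v0a1, Atp6v1f and Atp6v1g1 of the vacuolar pump, and Atp11a, Atp1b1, Atp1b3, Atp7a and Atp13a3 of the P-type class. Of these, Atp1b1 and Atp1b3 are beta subunit genes. In the alternative with every probe set on its own, only the probe set that stands for the gene was compared. Another probe set was called lower for Atp6v0a1 (-0.32) and for Atp11a (-0.31), so these calls depend on the probe set read. All 10 were called higher, but scaling to the bacterial controls shifts the differences upwards and left 0 members called lower in limma, so this says nothing of how stable the lower calls are. With only single arrays left out, 13 calls held, those of these 10 and the lower calls of Atp2a3, Atp2b2 and Atp6v1c2. Groups did not overlap for 12 of 21 vacuolar genes, 10 of them higher, and for 13 of 27 P-type genes, 7 of them higher, against 53.7% of all genes, 25.6% higher and 28.1% lower.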

How the data were processed

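Biotinylated cRNA from liver of 3 wild-type and 3 transgenic mice was read on Affymetrix arrays, according to the labels. Values are used as deposited, on a log2 scale per probe set. The authors used affy with RMA, per the submitters' processing notes, which name no versions. RMA forces arrays to nearly one distribution, so a change in total RNA cannot be seen. With 3 arrays a group, precision is limited by their number.

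Titles gave the groups. Probe set names come from the platform annotation, and the 48 member symbols all matched RefSeq (GRCm38.p6). For a gene with several probe sets, the one with the highest mean over the 6 arrays was kept. The test was limma 3.58.1 (R 4.3.3) with lmFit and eBayes and no further terms. Its p-values were adjusted by Benjamini-Hochberg across 12393 genes and read at 0.05. The fit was tested on simulated data. Alternatives changed the normalization, the probe set rule, the filter on dim genes, the eBayes options, the replicate block or the arrays included.

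Members, lists and alternatives were chosen with earlier results of these data known. The naming rule took all called members, the highest-reading member of a role with no call, Tcirg1 and up to 4 called genes per partner list. All other genes given with values of their own, uncalled members included, were chosen after these were seen. Python 3.11.15, pandas 2.3.3 and matplotlib 3.10.9 drew the figures.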

Additional observations from a re-analysis of the deposited data

How the results depend on the processing

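With every probe set on its own, 15 vacuolar probe sets were called higher and 4 lower, 11 P-type higher and 11 lower (median -0.06), and 3801 higher of all. Averaging the probe sets per gene gave 1 vacuolar gene lower and a vacuolar median of 0.11, turned Atp6v0a2 to 0.05 and called Atp2a2 lower at -0.40. Without probe sets ending _s_at or _x_at the vacuolar median was 0.11. Without the 40% dimmest genes 1 vacuolar and 2 P-type genes were lower, the medians were 0.26 and 0.03, and 1660 of all genes were lower. Cyclic loess gave 5 vacuolar higher, 3 P-type lower and a P-type median of -0.01, and quantile normalization again 3 P-type lower and a median of 0.01. The P-type median was -0.08 with median centring and -0.02 with array weights.

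Scaling to the bacterial controls gave 16 vacuolar genes higher and 0 lower, 18 P-type higher and 0 lower, medians of 0.55 and 0.33, and 7010 of all genes higher and 651 lower (91.5% of calls higher against 49.4%). It turned the sign of Atp6v0a2 (0.10), Atp6v1c2 (0.02), Atp8a2 (0.04), Atp4b (0.04), Atp1b2 (0.13), Atp6ap2 (0.36) and Tcirg1 (0.11), and called Atp2a2 (0.39) and Atp2c1 (0.42) higher. The counts of 0 lower came from limma with this scaling alone. With each array left out in turn, vacuolar genes higher ranged from 5 to 8 and lower from 1 to 2, with medians of 0.12 to 0.21, and P-type genes higher ranged from 5 to 6 and lower from 2 to 3, with medians of -0.06 to -0.01. Over all genes, 1876 to 2411 were then higher and 1890 to 2407 lower, beside 2467 and 2523 with all arrays. Causes of these changes were not tested.

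The replicate block, with the number of the titles as a term, gave 6 vacuolar genes higher and 2 lower and 5 P-type higher and 4 lower, and 2111 of all genes higher and 2168 lower. It ended the calls of Atp1b2 (adjusted p = 0.0544), Atp6v1d (0.0563), Atp10a (0.0665) and Atp6v0b (0.0855). The labels do not say that numbers pair animals, and deviations from the group means correlated at -0.103, -0.0218 and 0.0574 for the same numbers. Dim probe sets, with no detection calls, limit what can be said of isoforms that read low.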
